A study of Mus musculus with 12 samples.

Results

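Genes of the hypoxia response and of glycolysis were followed in fetal mouse kidneys kept in culture, either wildtype or with beta-catenin activated. Beta-catenin relays canonical Wnt signals to target genes. Of 35 listed genes, 31 were measured by a probe set whose annotation named that gene alone, among 12394 genes tested. The other 4 were left out: Gpi1, Eno1 and Ankrd37 had no probe set naming a single symbol, and the probe sets of Bnip3l also named a pseudogene. Each gene was read from its brightest probe set, taken as the mean over all 12 arrays. The samples were 6 wildtype and 6 beta-catenin activated kidney cultures from C57BL/6 mice, and the activated kidneys carry a label that names them as having tumors. Both genotypes came from pregnant mice given tamoxifen into the peritoneum at 10.5 days post coitum (dpc), at 2 mg per 40 g of body weight. Both were dissected at 10.5 dpc and cultured on Transwell membranes for 3 to 4 days. The medium, F12 mixed with DMEM, held transferrin (5 µg/mL), insulin (5 µg/mL) and selenium (5 ng/mL). The allele that activates beta-catenin, the Cre driver and the days of culture of each kidney are not given in the sources used here. The sample titles carry numbers that form a lower and a higher run, with 3 wildtype and 3 activated arrays in each. What the runs are is not stated. Arrays 1 to 3 of each genotype belong to the lower run and arrays 4 to 6 to the higher run. Separate animals or cultures are not stated for the samples, so p-values measure only the spread between these samples.

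Cells sense oxygen through enzymes that hydroxylate HIF-1α, the inducible subunit of hypoxia-inducible factor (HIF), and so mark it for degradation. When oxygen is scarce the protein persists, binds short core sequences near its target genes and raises glucose uptake, glycolysis, lactate production and the secretion of vessel growth factors. In the fetal kidney this pathway is known for guiding vessel growth, and nephron progenitors are known to rely on glycolysis before they differentiate.

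Promoters are shown for the measured genes with the smallest p-values for activation in the lower run, because the later results turn on genes of this group. By that rule 4 genes were chosen: Bnip3, Slc2a3, Ldha and Higd1a, of which Slc2a3 had no entry in the sequence table. The windows run from 250 bases before to 50 bases after the start of transcription, 5′ to 3′ on the gene's strand, from RefSeq on build GRCm38.p6. Capitals mark the core that HIF binds, ACGTG or GCGTG, or the same core on the opposite strand, written CACGT or CACGC. The Bnip3 window lies at chr7:138909457-138909756 on the minus strand, that of Ldha at chr7:46845554-46845853 on the plus strand, and that of Higd1a at chr9:121857747-121858046 on the minus strand.
Bnip3: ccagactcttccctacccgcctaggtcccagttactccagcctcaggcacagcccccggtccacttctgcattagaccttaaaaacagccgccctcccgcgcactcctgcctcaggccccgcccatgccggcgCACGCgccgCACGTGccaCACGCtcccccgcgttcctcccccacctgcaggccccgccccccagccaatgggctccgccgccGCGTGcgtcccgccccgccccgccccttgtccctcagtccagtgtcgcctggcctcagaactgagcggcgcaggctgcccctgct
Ldha: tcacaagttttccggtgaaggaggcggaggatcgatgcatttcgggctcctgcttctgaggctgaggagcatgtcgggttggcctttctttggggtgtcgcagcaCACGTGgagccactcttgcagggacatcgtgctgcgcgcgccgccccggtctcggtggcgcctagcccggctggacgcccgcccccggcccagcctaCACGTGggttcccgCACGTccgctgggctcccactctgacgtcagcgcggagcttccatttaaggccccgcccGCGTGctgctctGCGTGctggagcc
Higd1a: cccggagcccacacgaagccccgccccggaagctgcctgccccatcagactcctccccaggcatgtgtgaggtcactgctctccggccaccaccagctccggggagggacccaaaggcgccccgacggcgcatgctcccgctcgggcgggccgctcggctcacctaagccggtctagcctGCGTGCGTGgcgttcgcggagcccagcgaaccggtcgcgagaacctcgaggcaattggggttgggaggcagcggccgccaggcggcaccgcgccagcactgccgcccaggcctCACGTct
The core stood at 4 places in the Bnip3 window, 5 in that of Ldha and 3 in that of Higd1a, where a palindrome was counted once and overlapping matches each counted. Over all 32851 windows in the table, 2.64% held it at 4 or more places and 17.5% at 2 or more. Of the 43 windows of the measured genes, 35 (81.4%) held the core, against 43.8% of all windows. Of the 29 measured genes with at least 1 window, 28 (96.6%) held the core in some window, against 46.7% of 27025 genes in the table. The number of windows per gene was not matched in this comparison by gene. Tpi1, a glycolytic enzyme, was the gene without the core. It stood at 5 places in 1 Hk1 window and 0 in the other, at 4 in those of Pfkp and P4ha2, and at 1 in that of Pfkl. Whether these counts go with the expression differences was not tested. The windows of these genes were also richer in CG dinucleotides, with a median of 20 against 7 over all windows and 17 over all windows with the core, so the base composition was not matched. A match describes the letters in the window and shows no binding.

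Levels are log2(intensity + 16) after quantile normalisation, and differences on this scale understate the change of dim genes. The highest signal of 27 bacterial control probe sets was 5.45 on this scale; 29 of the 31 genes lay above it on all 12 arrays, and none lay below it on every array. Slc2a3 was above it on 11 arrays and Car9 on 7. Activated 2 stood apart in RNA or labelling quality: its log2 ratio of 5′ to 3′ Gapdh signal was 0.08, against -2.63 to -1.05 on the other arrays. Activated 6 (-1.14) and wildtype 2 (-1.05) came next. The Wnt target Axin2 rose by 1.78 ± 0.20 (log2, SE) with activation in the lower run (limma, adjusted p = 0.00379), and differed by 0.45 ± 0.23 in the higher run (adjusted p = 0.835). Kidney markers were present: 7 of 7 measured stromal, 6 of 9 nephron progenitor and 6 of 9 ureteric bud genes lay above the bacterial signal on every array, while the ureteric bud genes Ret, Wnt9b and Hoxb7 lay below it on every array. The summed intensity of 9 nephron progenitor genes was 3097 to 3570 in wildtype and 1218 to 1377 in activated arrays of the lower run, and 2948 to 3364 against 2347 to 2952 in the higher run. The intensities of 8 erythroid genes, 3 of them above the bacterial signal throughout, summed to 10163 to 11972 on lower-run arrays and to 1496 to 3180 on higher-run arrays of both genotypes.

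Over all 12 arrays, none of the 31 genes passed the test between activated and wildtype kidneys. The limma fit called 0 of them at an adjusted p under 0.05, where 0.0242% of all genes were called. At an unadjusted p under 0.05, 4 were higher in activated kidneys and 0 lower, where 3.01% of all genes were higher and 3.14% lower. The 4 were Slc2a3 (1.06 ± 0.29, adjusted p = 0.381), P4ha1 (0.74 ± 0.21, adjusted p = 0.428), Adm (0.48 ± 0.18, adjusted p = 0.687) and Pgm2 (0.32 ± 0.14, adjusted p = 0.762). The difference was positive for 24 of the 31 genes, against 46.6% of all genes, with a median of 0.18 against -0.01 over all genes. No gene of the 31 had its 6 activated arrays wholly above or below its 6 wildtype arrays, where 0.29% of all genes were wholly higher and 0.21% wholly lower. With the run and the 5′ to 3′ ratio of each array as terms, Slc2a3 alone of the 31 was called (1.24, adjusted p = 0.0361), and in that fit 0.879% of all genes were called.

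Most of the differences lay in the lower run, though the test between runs, given below, called none of the 31 genes. In the lower run, 17 of the 31 genes had all 3 activated arrays above all 3 wildtype arrays and none had them below, where 5.41% of all genes were wholly higher and 7.09% wholly lower. The mitophagy gene Bnip3 passed the test, 1 gene of 31, where 0.597% of all genes were called and 0.331% were called higher. A further 14 were higher at an unadjusted p under 0.05, making 15 with Bnip3 and 0 lower, against 3.55% of all genes higher and 3.52% lower. The difference was positive for 27 genes, against 45.6% of all genes, with a median of 0.42 against -0.03 over all genes. In bulk samples, fewer cells of a type and less RNA per cell cannot be told apart.

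In the higher run, limma called 0 of the 31 genes, against 0.00807% of all genes. At an unadjusted p under 0.05, Slc2a3 and P4ha1 were higher and none was lower, against 3.2% of all genes higher and 3.16% lower. The groups did not overlap for 5 genes: Slc2a3, Pgm2, Adm and P4ha1 were higher in activated arrays, and Egln1 lower. For all genes the corresponding shares were 5.6% and 5.73%. The difference was positive for 13 genes, against 49.7% of all genes, and the median was -0.03. The test of the difference between runs called 0 of the 31 genes, against 0.331% of all genes. At an unadjusted p under 0.05, 11 genes had a smaller activation difference in the higher run and 0 a larger one, against 3.14% and 2.97% of all genes. It was positive for 4 genes, against 52.6% of all genes, and its median was -0.42 against 0.02 over all genes. Without activated 1, Ldha was called (adjusted p = 0.0408), where 0.186% of all genes were.

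**Figure D1:**
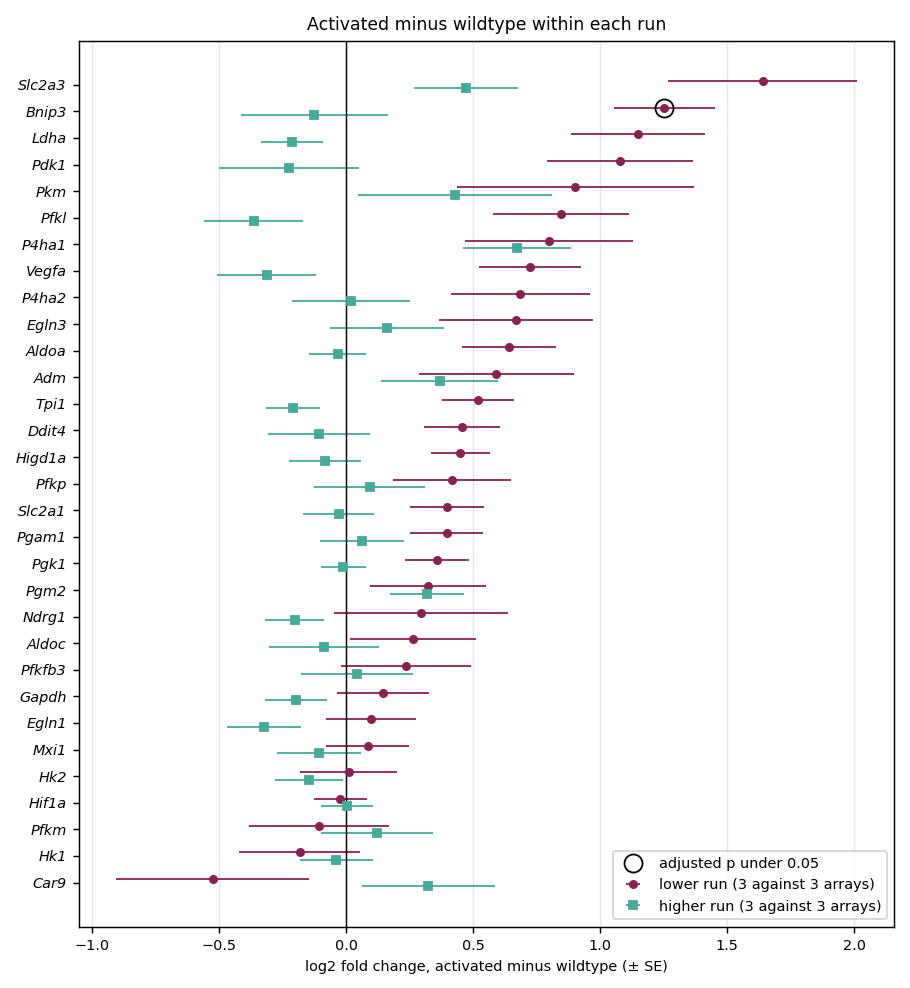
Difference between activated and wildtype arrays (log2, horizontal axis) for each of the 31 genes (vertical axis), with circles for the lower run, squares for the higher run and bars for the SE (3 arrays against 3). The open ring marks the one difference with an adjusted p under 0.05, Bnip3 in the lower run (1.25), while the median over the genes was 0.42 in the lower and -0.03 in the higher run.

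No oxygen sensor passed the test. Hif1a, which encodes HIF-1α, lay between 11.13 and 11.52 on all 12 arrays, and its activated minus wildtype difference was -0.02 ± 0.10 (lower run) and 0.00 ± 0.10 (higher run). Its transcript level says nothing of the protein, which is controlled by degradation. Egln1, the main hydroxylase that marks HIF-1α, read 8.31, 8.29 and 7.94 in activated arrays of the higher run and 8.43, 8.64 and 8.44 in wildtype arrays of that run. The groups did not overlap, but the difference of -0.32 ± 0.15 did not pass (adjusted p = 0.783). Egln3, a hydroxylase that is itself a HIF target, read 7.55, 7.09 and 7.83 in activated and 7.22, 6.31 and 6.94 in wildtype arrays of the lower run. The groups overlapped at 7.09 and 7.22, and the difference was 0.67 ± 0.30 (adjusted p = 0.711), or 0.41 without wildtype 2.

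Of the glucose transporters, Slc2a3 (GLUT3), which has a high affinity for glucose, had the largest activation difference of the 31 genes in the lower run. In the lower run it read 7.88, 7.47 and 8.21 in activated arrays and 6.55, 5.37 and 6.72 in wildtype arrays. Higher-run values were 6.87, 7.04 and 6.61 against 6.24, 6.59 and 6.27. The activated arrays were above the wildtype arrays in both runs, by a narrow margin in the higher run. Wildtype 2 was far below the others and under the bacterial control signal of 5.45. The size of the lower-run difference and its first rank rest on that array. The difference was 1.64 ± 0.37 in the lower run, 3.12-fold (adjusted p = 0.123), and 0.47 ± 0.20 in the higher run (adjusted p = 0.778), and the difference between runs was -1.17 ± 0.45 (adjusted p = 0.639). Slc2a1 (GLUT1), the widely expressed transporter, read 10.17, 10.22 and 10.55 in activated and 10.04, 9.73 and 9.98 in wildtype arrays of the lower run. Its groups also did not overlap there (0.40 ± 0.15, adjusted p = 0.52), while in the higher run the difference was -0.03 ± 0.14.

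Upper glycolysis, taken here from hexokinase to phosphofructokinase with Pfkfb3 and Pgm2 added, was mixed. Of its 7 genes, 1 was higher at an unadjusted p under 0.05 in the lower run and 3 had groups that did not overlap, with a median of 0.24. In that run 3.55% of all genes were higher at that level and 5.41% were wholly higher. Pfkl, the liver-type subunit of phosphofructokinase, which catalyses the committed step, read 7.96, 8.83 and 8.25 in activated and 7.72, 7.12 and 7.67 in wildtype arrays of the lower run. Its higher-run values were 7.28, 7.15 and 6.84 against 7.19, 7.65 and 7.52. Activated arrays were thus wholly above wildtype in the lower run, with activated 2 highest, and overlapped with them in the higher run. The difference was 0.84 ± 0.27 (adjusted p = 0.381) and -0.36 ± 0.19 (adjusted p = 0.851), and the runs differed by -1.21 ± 0.34 (adjusted p = 0.26). The muscle-type subunit gene Pfkm differed by -0.11 ± 0.28 in the lower run and the platelet-type Pfkp by 0.42 ± 0.23 (adjusted p = 0.824). The hexokinase genes, whose enzymes trap glucose in the cell, had lower-run differences near 0: Hk1 differed by -0.18 ± 0.24 and Hk2 by 0.01 ± 0.19. Pfkfb3, whose product makes the activator of phosphofructokinase, differed by 0.24 ± 0.26. Pgm2, which converts sugar phosphates, differed by 0.32 in each run (SE 0.23 and 0.15), but its lower-run difference was 0.19 without activated 2 and 0.14 without wildtype 2.

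Lower glycolysis, taken here from aldolase to pyruvate, had positive differences for all 7 genes in the lower run, against 45.6% of all genes. That of Gapdh turned to -0.07 without activated 2. The median was 0.40, with 4 genes at an unadjusted p under 0.05 and the same number with groups that did not overlap. Of all genes, 3.55% were higher at that level and 5.41% were wholly higher. Tpi1, triosephosphate isomerase, read 10.63, 11.07 and 10.75 in activated arrays of the lower run, all above the wildtype values of 10.32, 10.15 and 10.43. Its difference was 0.52 ± 0.14 there (adjusted p = 0.24), -0.21 ± 0.11 in the higher run, and -0.73 ± 0.18 between the runs (adjusted p = 0.146). Aldoa, an aldolase, read 10.24, 10.72 and 10.42 against 10.12, 9.48 and 9.84, a difference of 0.64 ± 0.18 (adjusted p = 0.294), and -0.03 ± 0.11 in the higher run. For Tpi1 and Aldoa, as for Pfkl and Ldha, activated 2 was the highest and wildtype 2 the lowest array of the lower run. These arrays had the highest 5′ to 3′ Gapdh ratios of that run. Pgk1, a kinase that makes ATP, read 12.65, 12.28 and 12.53 against 11.90, 12.25 and 12.23, so that activated 2 barely cleared wildtype 2. Its difference was 0.36 ± 0.13 (adjusted p = 0.475) and that of Pgam1, a mutase, 0.40 ± 0.14 (adjusted p = 0.5), or 0.24 without activated 2. Pgk1 and Pgam1 differed by -0.01 ± 0.09 and 0.06 ± 0.17 in the higher run. Aldoc, the aldolase best known from brain, differed by 0.26 ± 0.25 in the lower run, or 0.40 without wildtype 2.

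Pkm and Gapdh are given beside the 5′ to 3′ ratio of single arrays. Pkm, pyruvate kinase, the last enzyme of glycolysis, read 9.41, 11.19 and 9.02 in activated and 8.76, 9.42 and 8.75 in wildtype arrays of the lower run, and 8.54, 8.45 and 10.06 against 8.37, 8.92 and 8.47 in the higher run. Activated 2 and activated 6, the activated arrays with the highest 5′ to 3′ Gapdh ratios, were the high ones, and wildtype 2 was the highest wildtype array. The lower-run difference of 0.90 ± 0.47 (adjusted p = 0.781) was 0.24 without activated 2. Gapdh, the dehydrogenase after the splitting step, differed by 0.14 ± 0.18 at its 3′ probe set, and by 0.65 at the 5′ and 0.60 at the middle probe set. Over all 12 arrays Pkm differed by 0.66 ± 0.37, and by 0.20 (adjusted p = 0.522) with the run and the 5′ to 3′ ratio as terms. Gapdh differed by -0.05 (adjusted p = 0.913) in that fit. The 3′ probe set that gave this Gapdh value is also part of the ratio, so the fit cannot judge Gapdh apart from the ratio.

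The pyruvate branch point, where carbon turns to lactate or to mitochondria, had both of its genes higher in the lower run without overlap. Of all genes, 5.41% were wholly higher there. Ldha, lactate dehydrogenase A, read 10.27, 11.28 and 10.83 in activated arrays of the lower run against 9.61, 9.26 and 10.06 in wildtype. On higher-run arrays it read 9.39, 9.68 and 9.35 against 9.67, 9.82 and 9.57. All 3 activated arrays of the lower run were above every other array of the set. The difference was 1.15 ± 0.26, 2.22-fold, in the lower run (adjusted p = 0.123), -0.21 ± 0.12 in the higher run (adjusted p = 0.857) and -1.36 ± 0.32 between them (adjusted p = 0.117). Pdk1, the kinase that shuts pyruvate out of the mitochondrial dehydrogenase, read 9.46, 8.36 and 9.40 in activated and 7.74, 8.18 and 8.07 in wildtype arrays of the lower run. Activated 1 and activated 3 were far higher, and activated 2 only just above wildtype. The difference was 1.08 ± 0.29 (adjusted p = 0.217), and without activated 2 it was 1.44 and passed (adjusted p = 0.0118), where 0.702% of all genes were called. In the higher run Pdk1 read 7.92, 8.15 and 7.17 in activated and 7.76, 8.40 and 7.74 in wildtype arrays, a difference of -0.22 ± 0.28.

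Of the genes of mitochondria and mitophagy, Bnip3, whose product on the outer mitochondrial membrane drives mitophagy, rose with activation in the lower run. Its levels were 9.94, 9.42 and 10.01 in activated and 8.26, 8.74 and 8.61 in wildtype arrays. In the higher run they were 8.63, 8.75 and 7.66 against 8.47, 8.82 and 8.13. The lower-run groups were well apart, while in the higher run they overlapped, with activated 6 lowest of all. The rise was 1.25 ± 0.20, 2.38-fold (adjusted p = 0.0229), against -0.12 ± 0.29 in the higher run (adjusted p = 0.966), and the test between runs gave -1.38 ± 0.38 (adjusted p = 0.225). The call depended on single arrays. It was lost without wildtype 1 (adjusted p = 0.121), wildtype 2 (0.0655), wildtype 3 (0.0995), activated 1 (0.165) or activated 3 (0.111), and held without activated 2 (0.0107), with the log2 difference between 1.12 and 1.44 throughout. Higd1a, a mitochondrial inner membrane protein induced by hypoxia, read 11.12, 11.02 and 11.15 in activated arrays of the lower run, above the wildtype values of 10.49, 10.82 and 10.62. The difference was 0.45 ± 0.12 (adjusted p = 0.197) there and -0.08 ± 0.14 in the higher run.

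**Figure D2:**
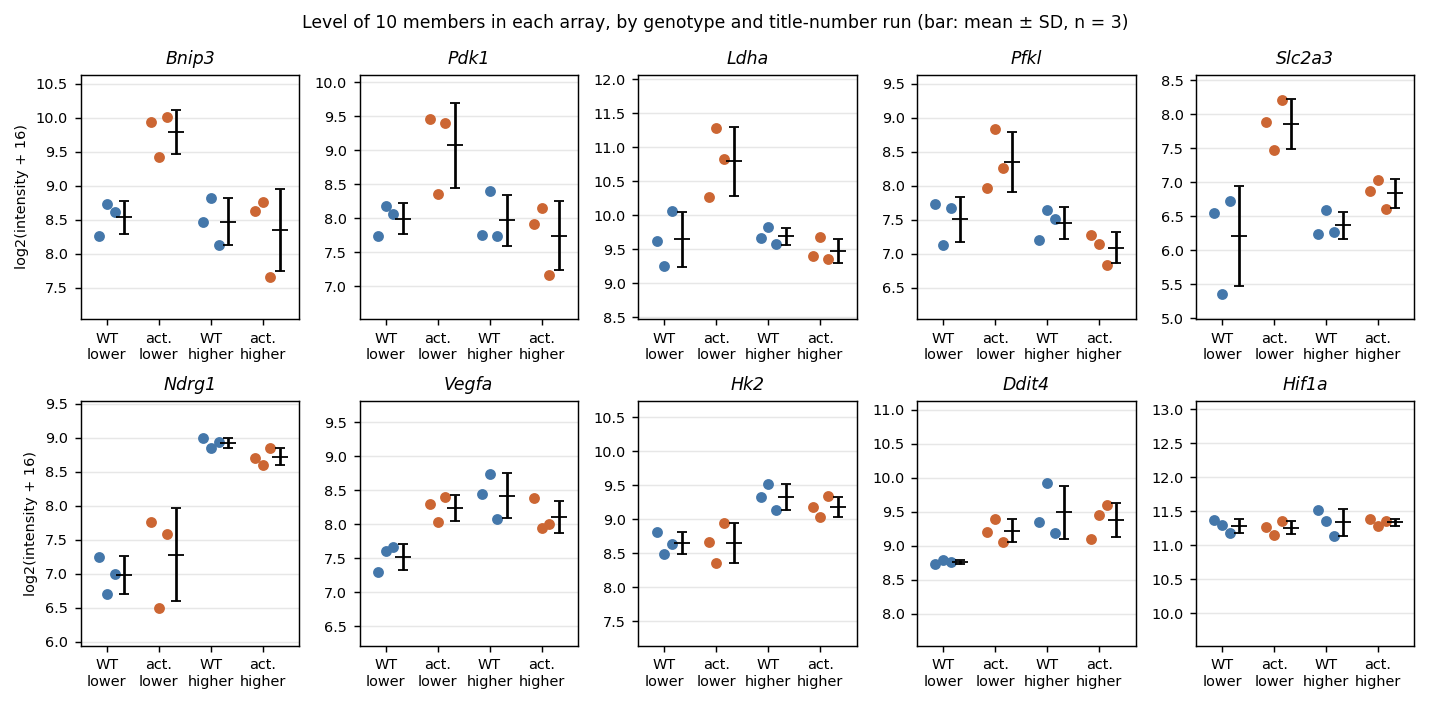
Level of 10 of the genes, log2(intensity + 16) on the vertical axis, in each array by genotype and run, with points for arrays and bars for mean ± SD (n = 3). Bnip3 in the lower run lies between 9.42 and 10.01 in activated and between 8.26 and 8.74 in wildtype arrays, while its groups overlap in the higher run.

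Of the secreted signals, Vegfa, the growth factor that recruits vessels, read 8.29, 8.03 and 8.41 in activated and 7.30, 7.61 and 7.66 in wildtype arrays of the lower run. In the higher run it read 8.38, 7.94 and 8.004 against 8.45, 8.74 and 8.08. The wildtype arrays of the lower run were the low ones, and the other 9 arrays overlapped. The difference was 0.72 ± 0.20 in the lower run (adjusted p = 0.265), -0.31 ± 0.20 in the higher run (adjusted p = 0.865) and -1.04 ± 0.28 between runs (adjusted p = 0.198). The summed intensity of 10 endothelial markers, 7 of them above the bacterial signal on every array, was 1240 to 1776 in activated and 773 to 1538 in wildtype arrays of the lower run, and 1262 to 1293 against 739 to 930 in the higher run. Its part in the Vegfa values was not tested. Adm, the vessel-dilating peptide adrenomedullin, read 6.55, 5.78 and 6.64 against 5.67, 5.69 and 5.85 in the lower run, and 6.10, 6.07 and 6.64 against 5.99, 6.00 and 5.73 in the higher run. Its levels were close to the bacterial control signal, and the groups overlapped in the lower but not in the higher run. Its differences were 0.59 ± 0.30 and 0.37 ± 0.23.

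Among genes that restrain growth, Ddit4, an inhibitor of the growth kinase complex mTORC1, read 9.21, 9.39 and 9.06 in activated and 8.74, 8.79 and 8.77 in wildtype arrays of the lower run. The groups did not overlap, and the difference was 0.46 ± 0.15 (adjusted p = 0.407), against -0.11 ± 0.20 in the higher run. Ndrg1, a stress-induced gene, differed by 0.30 ± 0.34 and -0.20 ± 0.12 in the lower and higher run, and its lower-run difference ran from 0.06 without activated 1 to 0.69 without activated 2. Mxi1, an antagonist of Myc, differed by 0.08 ± 0.16 and -0.11 ± 0.16.

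The collagen prolyl hydroxylases, which stabilise collagen in the endoplasmic reticulum, were both higher in activated arrays of the lower run without overlap. In that run 5.41% of all genes were wholly higher. P4ha1 read 7.02, 8.32 and 7.35 against 6.68, 6.99 and 6.61 there, and 6.96, 7.10 and 7.62 against 6.53, 6.47 and 6.66 in the higher run. The groups were apart in both runs, by 0.80 ± 0.33 (adjusted p = 0.617) and 0.67 ± 0.21 (adjusted p = 0.659). Its highest arrays were activated 2 and activated 6, as for Pkm, and the lower-run difference was 0.42 without activated 2. P4ha2 read 6.74, 7.03 and 6.74 against 6.51, 5.82 and 6.13 in the lower run. Its difference was 0.69 ± 0.28 (adjusted p = 0.587) there and 0.02 ± 0.23 in the higher run. Car9, the carbonic anhydrase that controls acidity at the cell surface and is a widely used marker of hypoxic tumors, was dim. It read 6.02, 5.48 and 4.50 in activated and 5.76, 5.95 and 5.87 in wildtype arrays of the lower run, a difference of -0.53 ± 0.38 (adjusted p = 0.896), or -0.11 without activated 3, which was below the bacterial control signal.

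**Figure D3:**
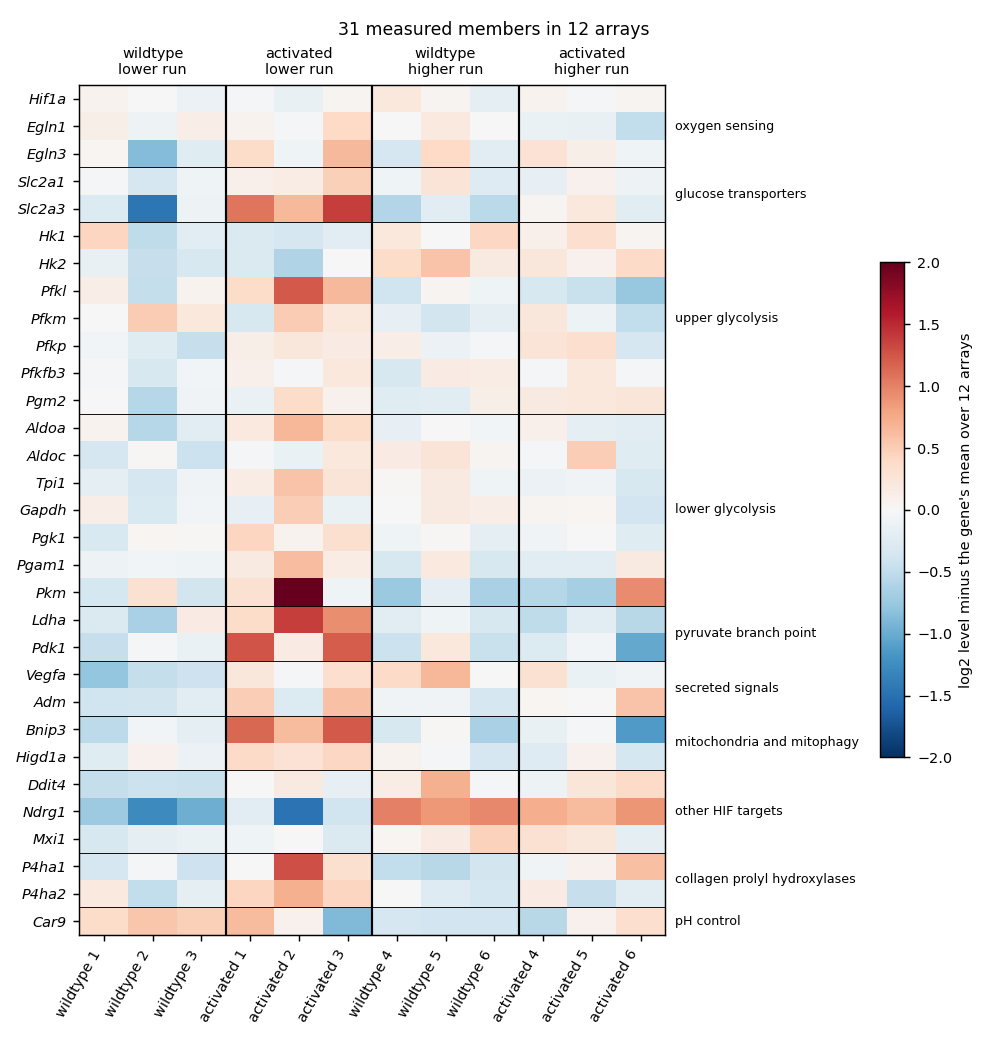
Level of the 31 genes (rows, ordered by role) in the 12 arrays (columns, by genotype and run), coloured by the log2 level minus the gene's mean over 12 arrays. Activated 2 holds the highest value of 11 genes and activated 3 of 7, and wildtype 2 holds the lowest value of 10.

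By array, the median deviation of the 31 genes from their means was 0.14, 0.18 and 0.26 on activated 1, 2 and 3, and -0.14, -0.33 and -0.13 on wildtype 1, 2 and 3. In the higher run it ran from -0.18 to 0.05, with no separation of the genotypes. Activated 6 had the lowest value of 7 genes, and activated 3, whose 5′ to 3′ ratio was ordinary, had the largest positive deviation. Leaving out activated 2 and wildtype 2, an alternative added after seeing the data, gave 4 called genes in the lower run: Pdk1 (adjusted p = 0.00796), Bnip3 (0.00672), Slc2a3 (0.0425) and Higd1a (0.0439). In that fit 0.742% of all genes were called. In the same arrays the nephron progenitor markers were lower with activation, as given above, and the summed intensity of 8 neuronal markers, of which 1 was above the bacterial signal throughout and Th below it throughout, was 307 to 421 in activated and 673 to 910 in wildtype arrays. The part of these cell type markers in the differences was not tested.

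Other probe sets gave a check on the values within a gene. There were 34 further probe sets for 20 of the genes, and 29 of them were positive in the lower run. Of all 20393 probe sets tested alone, 9725 were positive there. The 34 are repeat readings of the same genes on the same arrays, not further samples. The second Pdk1 probe set gave 1.07 and the second Pfkl probe set 0.62. Those of Tpi1 gave 0.67 and 0.57, those of Pgk1 0.50 and 0.85, and those of Aldoa 0.47 to 0.71. Slc2a3 was less even, with 0.67, 0.39 and -0.33 at its dimmer probe sets. The 5 genes Slc2a3, Aldoa, Tpi1, Pgk1 and Ndrg1 were read from probe sets of a type that can match other transcripts.

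The runs were then compared within each genotype, to ask which side of the comparison differed. These comparisons share arrays with the ones above and with the test between runs, so each is given by its own values. In wildtype kidneys, 4 of the 31 genes were higher in the higher run and none was lower, where 3.53% of all genes rose and 1.64% fell. In activated kidneys, 6 were lower in the higher run and 1 was higher, where 1.51% of all genes fell and 3.4% rose. The groups did not overlap for 6 genes higher and 2 lower in wildtype kidneys, against 12.3% and 12.9% of all genes. In activated kidneys they did not overlap for 3 genes higher and 12 lower, against 11.4% and 8.72%. At an unadjusted p under 0.05, 5 genes were higher and 1 lower in wildtype, against 9.82% and 8.04% of all genes, and 3 were higher and 12 lower in activated kidneys, against 9.58% and 7.14%. The difference was positive for 20 genes in wildtype (46.9% of all genes) and 9 in activated kidneys (49.8% of all genes), with medians of 0.12 and -0.25.

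The 6 genes that fell in activated kidneys of the higher run came from glycolysis, the pyruvate branch point and mitochondria. Bnip3 fell by 1.44 ± 0.27, 2.71-fold (adjusted p = 0.00528), and in wildtype kidneys it differed by -0.06 ± 0.27. Ldha fell by 1.32 ± 0.23, 2.5-fold (adjusted p = 0.00314), and differed by 0.04 ± 0.23 in wildtype. Pfkl fell by 1.26 ± 0.24 (adjusted p = 0.00671), and differed by -0.05 ± 0.24 in wildtype. These 3 stayed called with any array left out and under the other alternatives, except that the second, dimmer Pfkl probe set tested alone gave -0.96 (adjusted p = 0.137). Pdk1 fell by 1.33 ± 0.31 (adjusted p = 0.0218), Higd1a by 0.54 ± 0.13 (adjusted p = 0.0315) and Tpi1 by 0.49 ± 0.13 (adjusted p = 0.038), against -0.03 ± 0.31, 0.00 ± 0.13 and 0.23 ± 0.13 in wildtype. The last 3 depended on single arrays. Pdk1 was lost without activated 1 (adjusted p = 0.105), activated 3 (0.0849) or activated 6 (0.0951), and Higd1a without activated 1 (0.102), activated 3 (0.0917), activated 4 (0.123) or activated 6 (0.132). Tpi1 was lost without wildtype 1, wildtype 4 or any of activated 2 to 6 (0.0538 to 0.151).

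Ndrg1 had the largest difference between runs. It read 7.26, 6.70 and 7.005 in wildtype arrays of the lower run and 8.99, 8.85 and 8.94 in those of the higher run. In activated kidneys the values were 7.76, 6.50 and 7.59 against 8.71, 8.61 and 8.86. Every array of the higher run was above every array of the lower run, whatever the genotype. It rose by 1.94 ± 0.27, 3.84-fold, in wildtype (adjusted p = 0.000632) and by 1.44 ± 0.27, 2.72-fold, in activated kidneys (adjusted p = 0.00487). At the remaining probe sets for Ndrg1 the wildtype differences were 1.73, 1.10, 0.71 and -0.03, the last 3 of them dim. With the mean of all its probe sets the activated difference was 0.80 (adjusted p = 0.0832).

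Hk2, the inducible hexokinase, had the same direction: it read 8.81, 8.49 and 8.64 in wildtype arrays of the lower and 9.33, 9.53 and 9.14 in those of the higher run, and 8.66, 8.36 and 8.95 against 9.18, 9.04 and 9.34 in activated kidneys. The runs did not overlap in either genotype. It rose by 0.68 ± 0.17 in wildtype (adjusted p = 0.0255), and differed by 0.53 ± 0.17 in activated kidneys (adjusted p = 0.0947). Vegfa and Ddit4 rose in wildtype kidneys, by 0.90 ± 0.20 (adjusted p = 0.0147) and 0.73 ± 0.18 (adjusted p = 0.0311), and differed by -0.13 ± 0.20 and 0.16 ± 0.18 in activated kidneys. The second Vegfa probe set gave 0.89 in wildtype and did not pass (adjusted p = 0.45). With the mean of both probe sets the Vegfa call was lost (0.89, adjusted p = 0.111). Each of these wildtype calls was lost when some single arrays were left out. For Hk2 these were wildtype 2 (adjusted p = 0.104), wildtype 3 (0.0764), wildtype 4 (0.0883) and wildtype 5 (0.127). For Vegfa they were wildtype 1 (0.0642), wildtype 4 (0.0643) and wildtype 5 (0.085). For Ddit4 they were wildtype 1 (0.0876), wildtype 2 (0.0808), wildtype 3 (0.0856), wildtype 4 (0.0644) and wildtype 5 (0.139).

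**Figure D4:**
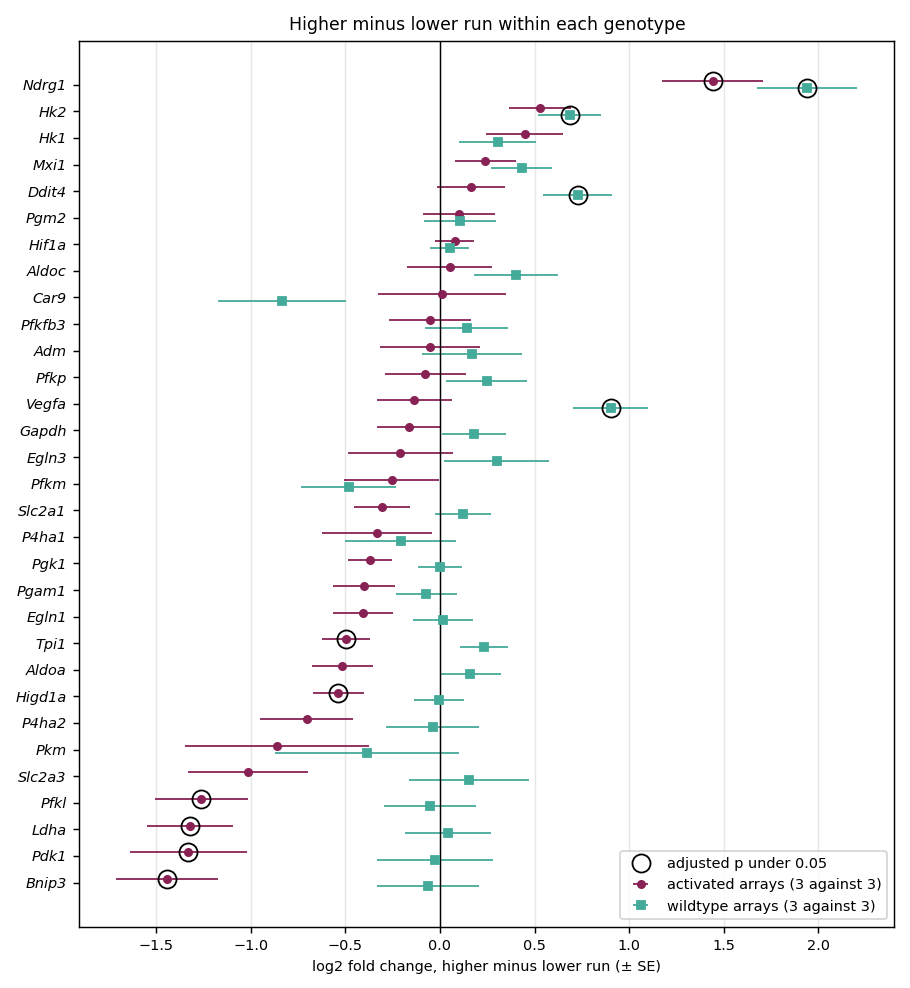
Difference between the higher and the lower run (log2, horizontal axis) for each of the 31 genes (vertical axis). Circles stand for activated and squares for wildtype arrays, bars for the SE and open rings for an adjusted p under 0.05. Ndrg1 lies to the right in both genotypes (1.44 in activated and 1.94 in wildtype arrays). Bnip3, Ldha and Pfkl lie to the left in activated arrays (-1.44, -1.32 and -1.26) and near 0 in wildtype.

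Cell type markers also differed between the runs. The erythroid genes Hbb-bh1, Hbb-y and Hba-x fell in the higher run in both genotypes, and the summed erythroid signal given above did not overlap between runs. The defining erythroid gene Hba-a1 was below the bacterial control signal on every array. The summed intensity of 9 macrophage markers, 5 of them above that signal on every array, was 692 to 1361 on lower-run and 1461 to 2005 on higher-run arrays. The part of these cells, and of the days of culture, in the run differences of the 31 genes was not tested.

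Other genes of the pathway, from lists outside the 31, did not pass the test for activation in either run. In the lower run limma called 0 of 12 other components of the HIF pathway, 36 other HIF targets, 20 other glycolysis and lactate genes, 13 of gluconeogenesis and the pentose phosphate path, 22 of the citric acid cycle, 37 of the respiratory chain and 19 of the integrated stress and unfolded protein responses. At an unadjusted p under 0.05, 4 of the 36 other HIF targets were higher and 2 lower, none of the 20 other glycolysis genes was either, and the medians of those lists were 0.03 and -0.01. Many of the other glycolysis genes were dim: 8 of 20 lay above the bacterial signal on every array and 3 below it on every array. For the other HIF targets these counts were 29 and 2 of 36. In the remaining lists 1 component was lower, 1 gluconeogenesis and 1 citric acid cycle gene were higher, 1 stress response gene was higher and 2 were lower, and no respiratory chain gene was either. In the higher run limma also called 0 in each list, and 2 components, 2 other HIF targets and 2 stress response genes were higher at an unadjusted p under 0.05. At that level 1 gene was lower in each list other than the components. Of all genes, 3.55% were higher and 3.52% lower at that level in the lower run. For the higher run these shares were 3.2% and 3.16%. Among the components, Cited2, which competes with HIF for its coactivator, differed by -0.39 ± 0.14 (adjusted p = 0.485) and Vhl, the ligase subunit that removes HIF-1α, by 0.56 ± 0.35. Slc16a3, the transporter that exports lactate, differed by 0.75 ± 0.34 (adjusted p = 0.707), and by -0.16 ± 0.29 among higher-run arrays. Among the other targets, Tgfb3, a growth factor, differed by -1.10 ± 0.26 (adjusted p = 0.135), Lox, which cross-links collagen, by -0.74 ± 0.22 (adjusted p = 0.306), and the early response gene Ier3 by 1.15 ± 0.32 (adjusted p = 0.257). G6pc3, a glucose phosphatase, differed by 0.83 ± 0.29 (adjusted p = 0.474), and Mpc1, a subunit of the mitochondrial pyruvate carrier, by 0.41 ± 0.17 (adjusted p = 0.609). G6pc3 was below the bacterial control signal on every wildtype array and on activated 1. Slc16a3 was below it on wildtype 2 and wildtype 3, and Vhl on wildtype 1 and wildtype 3, of the lower run.

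Between runs, the other HIF targets held calls in the upward direction in both genotypes. In wildtype kidneys 7 of 36 rose in the higher run and none fell: Bhlhe40, Lox, Vldlr, Ppp1r3c, Ier3, Anxa2 and Errfi1. Of all genes, 3.53% were called higher and 1.64% lower in that comparison. In activated kidneys 6 rose and none fell: Bhlhe40, Lox, Anxa2, Errfi1, Cxcr4 and Tgfb3. There 3.4% of all genes were called higher and 1.51% lower. Bhlhe40 is a repressor of the cellular clock, Vldlr a lipoprotein receptor, Errfi1 an inhibitor of growth factor receptors and Cxcr4 a chemokine receptor. The list medians were 0.25 and 0.20. Lox rose by 1.04 ± 0.18 in wildtype (adjusted p = 0.00382) and by 2.16 ± 0.18 in activated kidneys (adjusted p = 9.14e-06), and Ier3 rose by 2.28 ± 0.26 in wildtype (adjusted p = 0.000111). Of the 19 stress response genes, Asns and Xbp1 rose in wildtype, and Atf4, Asns, Psat1, Mthfd2 and Herpud1 rose and Hsp90b1 fell in activated kidneys. Atf4 is the main transcription factor of the integrated stress response, and Asns and Psat1 make amino acids under it. In the citric acid cycle list, fumarase (Fh1) fell by 0.41 ± 0.10 in activated kidneys (adjusted p = 0.0322). No gene of the other glycolysis list was called between runs, and 4 in wildtype and 1 in activated kidneys had an unadjusted p under 0.05. At that level 9.82% of all genes were higher and 8.04% lower in wildtype, and 9.58% and 7.14% in activated kidneys.

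**Figure D5:**
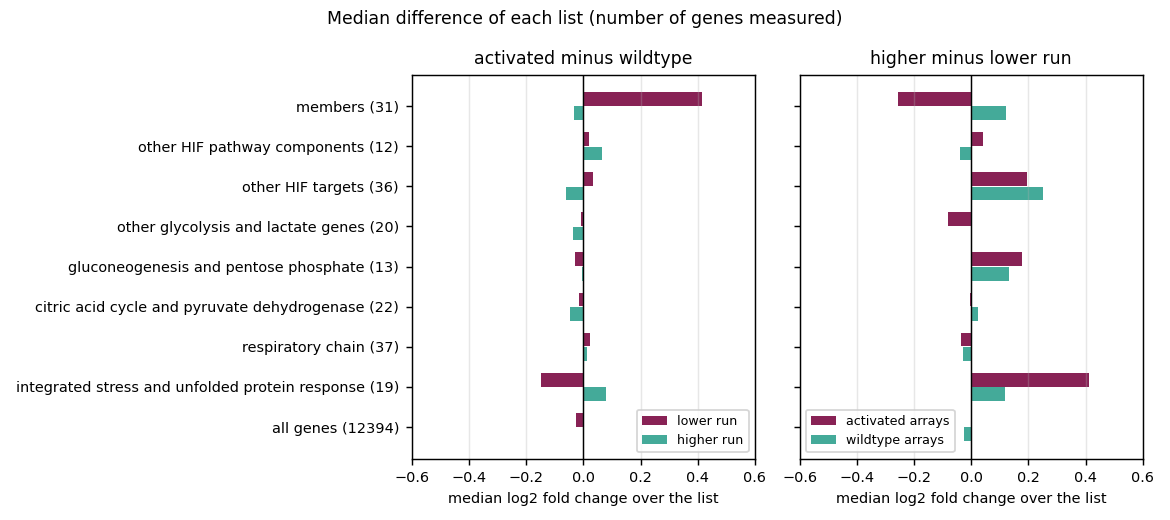
Median log2 difference of each list (vertical axis, with the number of genes measured), for activated minus wildtype arrays in each run (left) and for the higher minus the lower run in each genotype (right). The 31 genes have the median of 0.42 in the lower run, and the other HIF targets and other glycolysis genes those of 0.03 and -0.01. Of the other glycolysis genes, 8 of 20 lay above the bacterial control signal on every array, against 29 of the 31 genes.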

How the data were processed

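The deposited values are a linear intensity for each of 22690 probe sets on each of 12 arrays, from 0.0693 to 23037.5, from RNA labelled by Affymetrix in vitro transcription, per the labels' protocols. The authors had scaled each array: after trimming 2% from each end the means lie between 249.969 and 249.975. The software and genome build are not given in the sources used here. Of the probe sets, 20393 had 1 gene symbol in the platform annotation, 691 several and 1606 none. The first class, which includes the control probe sets that measure Gapdh, was kept, with the brightest probe set standing for each of 12394 genes. Array medians differed by up to 0.29 on the log2 scale, so log2(intensity + 16) was quantile normalised. The number of arrays limits the precision.

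The tests were those of limma 3.58.1, run in R 4.3.3 (moderated variances with a trend, two-sided, Benjamini-Hochberg over 12394 genes, threshold 0.05), over all 12 arrays, by run, and with 4 group means for the differences between runs. Values after ± are SE for differences. The calculations were tested on simulated data. The genes, lists and tests were chosen with earlier results of these data known. The genes named beyond the 31 were up to 3 of each list with the smallest p in the lower run. Axin2, the erythroid genes and the genes called between runs in the lists were chosen after their values were seen. Alternatives were values as deposited, centring on medians, testing without the 40% of genes that were dimmest, each probe set alone or averaged within a gene, a pseudocount of 1, no variance trend, the run and 5′ to 3′ ratio as terms, and each array left out. Plots were drawn with matplotlib 3.10.9.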

Additional observations from a re-analysis of the deposited data

Results flagged for a closer look

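In 2 of 62 sets of 6 arrays (31 genes in each genotype), the end array lay far from the nearest other array, with a gap over the set's range above Dixon's critical value of 0.625. Chance gives about 1 in 20. For Slc2a3, wildtype 2 read 5.37, where the next wildtype array read 6.24. For Pfkp, activated 6 read 6.58, where the next activated array read 7.03.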

How the results depend on the processing

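No direction of a called value turned with an array left out or under the other settings, but among probe sets tested alone a dim one of Ndrg1 gave -0.03 in wildtype between runs. Over all 12 arrays the count of called genes was 0 with the run as a term and 1 with the run and the 5′ to 3′ ratio as terms (0.879% of all genes called). In the lower run it was 2 with arrays centred on their medians (Bnip3 and Slc2a3, 0.589% of all genes called), 0 with no variance trend (Bnip3, adjusted p = 0.113, 0.315%) and 4 without activated 2 and wildtype 2 (0.742%). With no variance trend the count between runs was 2 in wildtype (3.97%) and 4 in activated kidneys (3.72%), and with the mean of all probe sets the wildtype median was 0.0078. With one array left out, the count ranged from 0 to 2 and the median from 0.39 to 0.46 in the lower run. It ranged from 0 to 0 over 12 arrays (median 0.13 to 0.26) and in the higher run (-0.07 to 0.03), and from 0 to 1 between runs (-0.47 to -0.31). It ranged from 1 to 4 in wildtype (0.04 to 0.18) and from 4 to 8 in activated kidneys (-0.29 to -0.24). The share of all genes called ran from 0.242% to 0.702% in the lower run and from 0.129% to 0.379% between runs. That share ran from 2.91% to 7.4% in wildtype and from 2.84% to 5.2% in activated kidneys. Between runs Higd1a and Tpi1 in activated kidneys were lost with arrays centred on their medians (adjusted p = 0.209 and 0.184), with the mean of all probe sets (0.184 and 0.0834) and with no variance trend (0.113 and 0.128), and Higd1a also with values as deposited (0.0508). Of all genes, centring on medians moved the calls in wildtype kidneys from 437 higher and 203 lower to 334 and 79, and for the difference between runs from 12 and 29 to 3 and 15. The causes were not tested. No paired analysis was possible because the titles share no number across genotypes. Car9, near the bacterial control signal, is limited by signal over background.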
